A study of Homo sapiens with 20 samples.

Results

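The 10 genes described here encode members of the BCL2 family, the proteins that decide whether the outer mitochondrial membrane is breached in apoptosis. They were chosen by gene symbol from the 39918 genes of the count table, and all 10 were present and passed the filter on low counts that left 18959 genes to test. BH3-only members were PMAIP1 (NOXA), BBC3 (PUMA), BCL2L11 (BIM), BID, BIK and BMF. The effectors were BAX and BAK1, and the anti-apoptotic members were MCL1 and BCL2L1 (BCL-XL).

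The 20 libraries, 4 in each of 5 groups, hold total RNA without its ribosomal share from HCT-116, a human line established from a colorectal carcinoma. All groups but the asynchronous one spent 16 h in 2 mM thymidine, an arrest of DNA synthesis, followed by 7 h without it to enrich cells in G2. The MG132+amanitin group was then given 3 h of 20 µM MG132 together with the RNA polymerase II poison α-amanitin at 50 µg/ml. The MG132 group received 20 µM MG132 alone for 3 h, and the bortezomib group 100 nM bortezomib for 3 h. MG132 and bortezomib both block the proteasome. The G2 group was taken at the start of drug treatment and the asynchronous group was neither synchronised nor treated. Vehicle cells of 3 h were not analysed here, so a drug group set against G2 also differs from it by 3 h of cell cycle time, while the drug groups are matched in time with one another. The comparisons of each drug group with G2 share the same G2 libraries. MG132 over G2 and MG132+amanitin over MG132 share the same 4 MG132 libraries, which enter with opposite sign. A high or low MG132 library therefore moves both values, and they are not independent of each other.

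In a living cell, anti-apoptotic members hold BAX and BAK1 in check, and BH3-only proteins tip the balance by binding the anti-apoptotic proteins or by activating the effectors directly. NOXA binds chiefly MCL1, while BIM and PUMA bind all the anti-apoptotic members. MCL1 and NOXA are both short-lived proteins that the proteasome removes, so proteasome inhibitors can raise both proteins even where their messages stay as they were. PMAIP1 is known to be induced by ATF4 in the integrated stress response. The present data measured only transcripts.

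Library totals ran between 26797395 and 39710457 counts. Levels are given as CPM, counts scaled to library size with TMM factors, and are relative to the other transcripts of a library: in bulk RNA, fewer cells that express a gene and less of its RNA per cell cannot be told apart. Whether the 4 replicates of a group were grown as separate cultures is not stated, and the p-values then speak only of the spread from library to library, which may be technical. In 4 libraries the counts leaned with GC content by more than 0.3 log2 units per 10 percentage points: asynchronous replicate 3 (0.50), G2 replicate 2 (0.36), MG132 replicate 2 (-0.41) and MG132 replicate 4 (0.74). Of 12 colorectal epithelial markers, 7 passed the filter, with summed levels between 3140 and 5869 CPM over all libraries. The 10 leukocyte markers summed to at most 2.54 CPM and the 10 fibroblast markers to at most 13.0 CPM.

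Promoters are shown for PMAIP1 and BBC3, which had the lowest values with MG132 and α-amanitin against MG132, and for BCL2L11, whose bortezomib and G2 libraries did not overlap, as 250 bases before and 50 bases after the start site (RefSeq, GRCh38.p14, strand of the gene). Capitals mark a match to a motif searched on both strands. In PMAIP1 (chr18:59899746-59900045, + strand) the capitals are TGACG read on the opposite strand, the core bound by ATF and CREB factors. In BBC3 (chr19:47232618-47232917, - strand) they are TGANTCA with C or G at N, the AP-1 site. BCL2L11 (chr2:111120664-111120963, + strand) held no match.
PMAIP1: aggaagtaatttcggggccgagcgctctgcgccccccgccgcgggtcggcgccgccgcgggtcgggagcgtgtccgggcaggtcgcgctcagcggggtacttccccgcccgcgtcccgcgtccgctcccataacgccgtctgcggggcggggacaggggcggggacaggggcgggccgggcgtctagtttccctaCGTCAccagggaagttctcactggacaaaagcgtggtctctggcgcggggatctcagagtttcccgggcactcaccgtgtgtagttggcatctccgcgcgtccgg
BBC3: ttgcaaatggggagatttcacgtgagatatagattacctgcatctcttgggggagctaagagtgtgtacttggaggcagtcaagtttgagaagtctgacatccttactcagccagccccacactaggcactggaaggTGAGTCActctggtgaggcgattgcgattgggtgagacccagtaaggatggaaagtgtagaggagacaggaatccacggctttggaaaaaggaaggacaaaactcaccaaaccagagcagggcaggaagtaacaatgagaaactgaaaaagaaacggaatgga
BCL2L11: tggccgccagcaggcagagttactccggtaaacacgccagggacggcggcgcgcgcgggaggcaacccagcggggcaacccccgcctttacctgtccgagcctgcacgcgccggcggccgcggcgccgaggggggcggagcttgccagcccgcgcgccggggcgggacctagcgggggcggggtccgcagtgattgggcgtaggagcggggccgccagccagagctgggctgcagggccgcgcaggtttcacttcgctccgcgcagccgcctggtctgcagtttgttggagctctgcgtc

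The PMAIP1 match lies at -55 to -51 from the start site and the BBC3 match at -113 to -107. TGACG was found in 24.6% of 35116 RefSeq promoter windows of this length, and TGANTCA in 4.95%. RefSeq windows were available for 8 of the 10 genes, MCL1 and BIK being the others, and gave 14 windows in all. Of those 14, 4 held TGACG, in PMAIP1, BMF, BAX and BCL2L1. The other motifs searched included TGACGTCA, the full palindrome of the ATF and CREB site and so an overlap of TGACG (1.85% of all windows), TGATGNAA, the site of C/EBP and ATF4 dimers (3.62%), and GAANNTTC, a heat shock unit (6.77%). GAANNTTC was found in BMF and BAK1. The BID windows held none of these motifs. A match is a description of the letters and was not tested as a site.

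Before drug treatment the anti-apoptotic transcripts stood highest. Per kb of exon, BCL2L1 averaged 77.6 ± 12.9 CPM in G2 libraries and MCL1 46.2 ± 4.2 CPM (SD, n = 4 each). PMAIP1 followed with 28.5 ± 11.7 CPM per kb, then BAK1 with 19.2 ± 3.2 and BIK with 15.2 ± 7.7 CPM per kb. BAX averaged 12.3 ± 1.9 and BID 11.1 ± 3.3 CPM per kb. BCL2L11 had 2.23 ± 0.46 CPM per kb, BBC3 1.57 ± 0.38 and BMF 0.142 ± 0.037 CPM per kb. Between PMAIP1 and BID, each gene's mean differed from the next by less than the larger SD of the pair. The gaps between BCL2L1, MCL1 and PMAIP1 and those among BID, BCL2L11, BBC3 and BMF were larger than the SDs. In MG132 libraries PMAIP1 had the highest mean of the 10 genes, 79.9 ± 61.2 CPM per kb, against 69.0 ± 11.9 for BCL2L1 and 55.3 ± 17.6 for MCL1, a lead smaller than its own spread. Exon lengths come from all annotated exons of a gene, so a short expressed form would be understated.

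**Figure D1:**
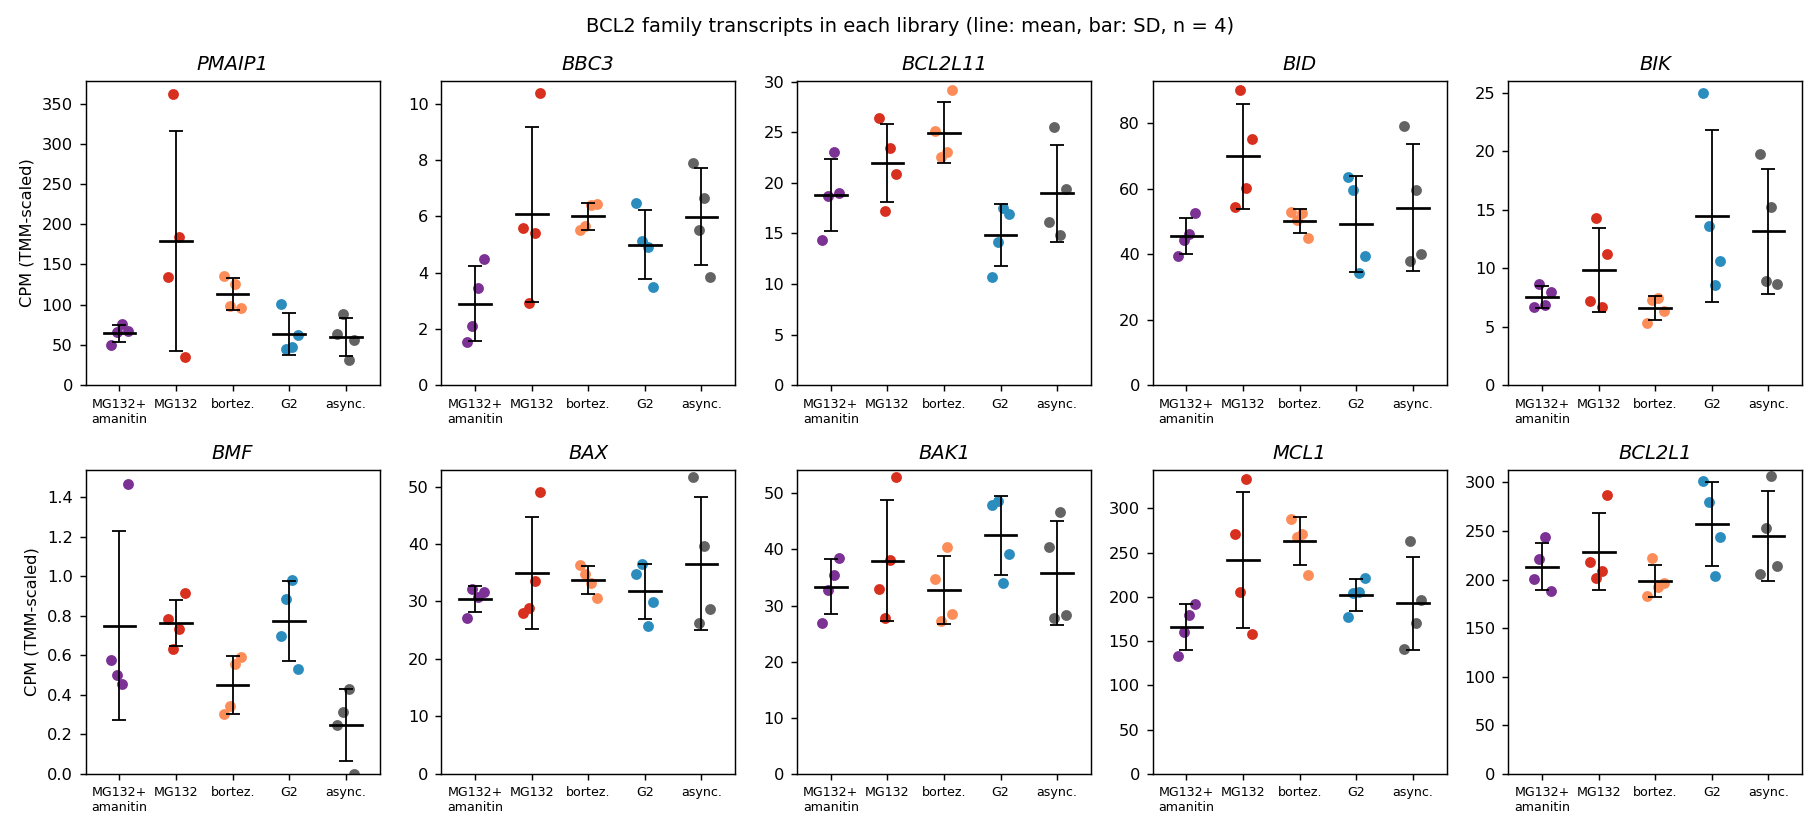
CPM of each of the 10 BCL2 family transcripts in every library, one panel per gene, with each group's mean as a line and its SD as a bar (n = 4). PMAIP1 spreads between 34.5 and 361.5 CPM among the 4 MG132 libraries, while bortezomib libraries lie between 95.9 and 135.4 CPM.

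Over the 6 comparisons and 10 genes, edgeR's quasi-likelihood test called none of the 60 differences at an adjusted p under 0.05. Without adjustment 11 of the 60 had a p under 0.05, and in 7 of the 60 the libraries of the groups did not overlap. Over all genes tested, 4.05% to 14.5% per comparison had such a p, and in 3.16% to 15.2% the groups did not overlap. The 60 are not independent, as the comparisons reuse the same groups. DESeq2 called 5 of the 60 and limma-voom 0. All the differences below are therefore given as values, not as calls, with the number of genes called in each comparison as background.

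MG132 against G2 asks what proteasome inhibition did to the synchronised cells. PMAIP1 had the largest difference of the 10 genes, a log2 fold change of 1.49, and 98.9% of the genes tested had a lower value. BCL2L11 and BID stood at 0.57 and 0.51, and the effectors and the anti-apoptotic genes between -0.17 and 0.26. The median over the 10 was 0.20, against -0.03 over all genes tested. None of the 10 passed in edgeR, where 2.08% of all genes tested were called, and 2 of the 10 had an unadjusted p under 0.05, against 11.8% of all genes. DESeq2 called 1 of the 10, PMAIP1, and limma-voom 0. The groups overlapped in all 10, whereas they did not in 6.52% of all genes tested.

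PMAIP1 (ENSG00000141682.12, chr18:59899948-59904306, + strand) had 134.6, 361.5, 184.0 and 34.5 CPM in the 4 MG132 libraries, against 101.2, 44.2, 47.2 and 62.6 CPM in the 4 G2 libraries. Of the MG132 libraries 3 lay above every G2 library and replicate 4 lay below all of them, so the groups overlapped. The means were 178.7 ± 136.9 CPM under MG132 and 63.8 ± 26.2 CPM in G2 (SD, n = 4 each), with a log2 fold change of 1.49 (SE 0.46, 95% interval 0.53 to 2.44, adjusted p = 0.116). MG132 replicates 2 and 4, the highest and the lowest, are also the libraries with the steepest GC slopes in opposite directions. The PMAIP1 transcript is poor in GC, 37.2%, lower than all but 5.83% of tested genes, and BBC3 is among the richest, with 69.7%. In BBC3 the order of these libraries was reversed: replicate 4 was highest of the MG132 group and replicate 2 lowest. BIK, at 56.0% GC, was highest in replicate 2 of that group (14.3 CPM). BMF, BAX, BAK1 and BCL2L1, at 54.8% to 58.9% GC, were highest in replicate 4. The part of GC in these orders was not tested.

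**Figure D2:**
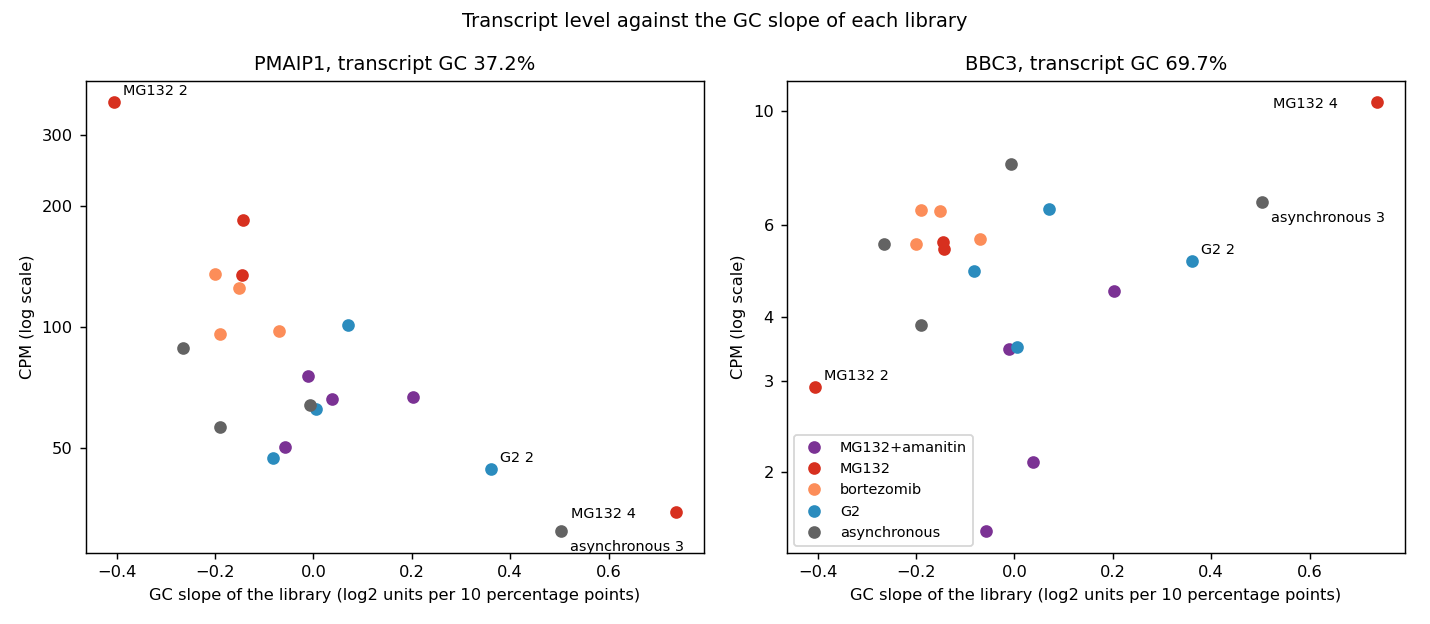
CPM of PMAIP1 (left) and BBC3 (right) on a log axis against the GC slope of each of the 20 libraries, coloured by group, with the 4 libraries of steepest slope named. MG132 replicate 4, at a slope of 0.74, is the lowest MG132 point for PMAIP1 and the highest for BBC3, and MG132 replicate 2, at -0.41, is the reverse. The part of GC in these levels was not tested.

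Whether PMAIP1 passed depended on those libraries and on the tool. Without MG132 replicate 4 the log2 fold change was 1.83 and passed (adjusted p = 0.00548), and without MG132 replicate 2 it was 0.89 (adjusted p = 0.44). An offset for GC content and length gave 1.25 (adjusted p = 0.0122), and leaving out all 4 skewed libraries gave 1.15 (adjusted p = 0.0504). DESeq2 gave 1.53 (adjusted p = 0.0248). Over the 12 alternatives that kept the replicates as they were or left out the skewed libraries, the log2 fold change lay between 1.14 and 1.53 and the adjusted p between 0.0122 and 0.478. The direction was upward in all 12 and in the 8 fits that left out a single library. Within letter L of the sample code, whose meaning is not given, the difference between 1 MG132 and 1 G2 library was 1.84, and within letter O, with 2 MG132 and 3 G2 libraries, 0.65.

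**Figure D3:**
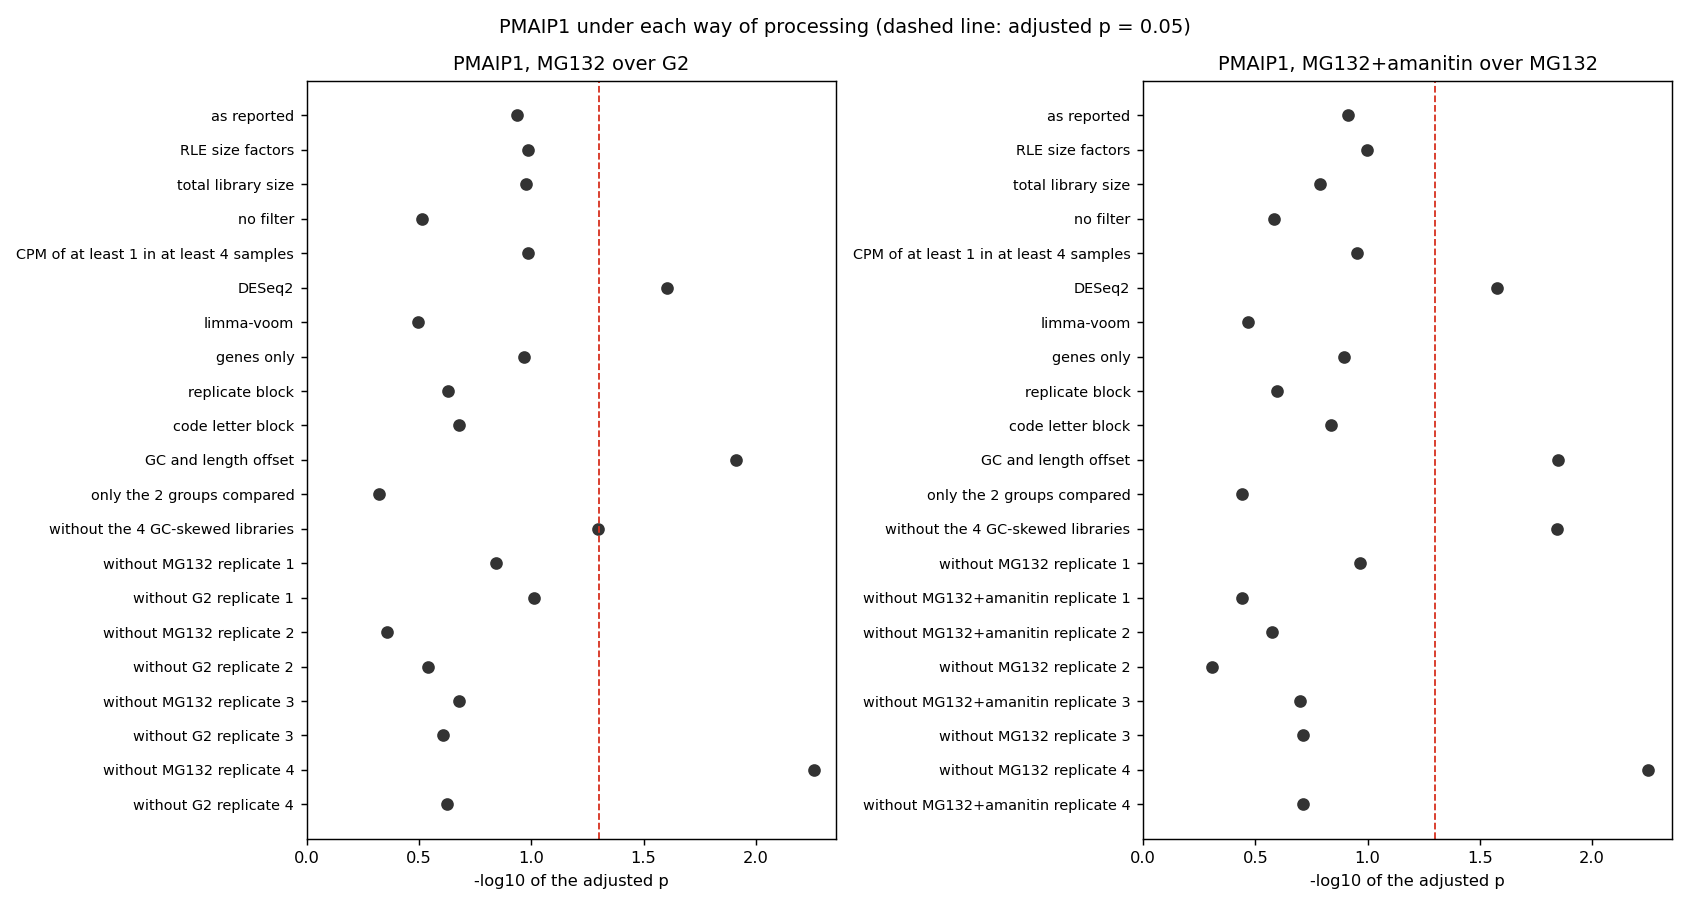
The -log10 of the adjusted p for PMAIP1 under each way of processing, for MG132 over G2 (left) and MG132+amanitin over MG132 (right), with the threshold of 0.05 as a dashed line. Most points lie left of the line; the GC and length offset, DESeq2 and the fit without MG132 replicate 4 lie right of it in both panels.

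BCL2L11 (ENSG00000153094.24, chr2:111119378-111168447, + strand) had 26.4, 17.2, 23.4 and 20.9 CPM in MG132 libraries, against 10.7, 14.2, 17.5 and 16.9 CPM in G2 libraries. Only MG132 replicate 2 reached into the G2 range, just under G2 replicate 3. For BCL2L11 the log2 fold change was 0.57 (SE 0.21, adjusted p = 0.219). BID (ENSG00000015475.18, chr22:17734138-17774770, - strand), which caspase-8 cuts to link death receptors to mitochondria, had 54.4, 90.2, 60.2 and 75.1 CPM in MG132 libraries and 63.7, 59.5, 34.4 and 39.3 CPM in G2 libraries. The BID groups overlapped, with a log2 fold change of 0.51 (SE 0.25, adjusted p = 0.431). BIK stood at -0.56 (adjusted p = 0.578), BBC3 at 0.28 (adjusted p = 0.886) and MCL1 at 0.26 (adjusted p = 0.802). Without G2 replicate 1 the BIK value was -0.16, and without MG132 replicate 3 the MCL1 value was 0.058. BAX, BAK1, BCL2L1 and BMF had log2 fold changes between -0.17 and 0.14. For the effectors and BCL2L1 the 95% intervals lay between 0.646-fold and 1.501-fold.

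Bortezomib against G2 repeats the question with a different inhibitor. BIK was lower and BCL2L11 higher by the largest amounts relative to their error, and PMAIP1 was higher by 0.83 on the log2 scale. The median over the 10 was 0.06, against -0.01 over all genes tested. None of the 10 passed in edgeR, where 1.15% of all genes tested were called, while 2 of the 10 had an unadjusted p under 0.05 (14.5% of all genes did). DESeq2 called 2 of the 10, BCL2L11 and BIK, and limma-voom 0. In 3 of the 10 the groups did not overlap, against 15.2% of all genes tested.

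BCL2L11 had 25.1, 22.6, 23.1 and 29.2 CPM in the 4 bortezomib libraries and at most 17.5 CPM in any G2 library. Every bortezomib library lay above every G2 library. The means were 24.98 ± 3.00 CPM with bortezomib and 14.8 ± 3.1 CPM in G2, a log2 fold change of 0.75 (SE 0.21, 95% interval 0.31 to 1.19, adjusted p = 0.0869). DESeq2 gave 0.76 (adjusted p = 0.0212). Over its 12 alternatives the value lay between 0.62 and 0.78, with adjusted p between 0.0212 and 0.803, the highest under a block for the code letter. The exons of BCL2L11 share 727 bases (10.9%) with the opposite-strand MIR4435-2HG, and the strand setting of the counting is not given, so part of its counts is uncertain.

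BIK (ENSG00000100290.3, chr22:43110748-43129712, + strand), a BH3-only protein that resides mostly at the endoplasmic reticulum, had 5.31, 7.30, 7.47 and 6.29 CPM with bortezomib, against 25.02, 13.6, 8.59 and 10.6 CPM in G2. All 4 bortezomib libraries lay below all 4 G2 libraries, and G2 replicate 1 stood far above the other three. The log2 fold change was -1.13 (SE 0.33, 95% interval -1.82 to -0.45, adjusted p = 0.0967), and without G2 replicate 1 it was -0.73 (adjusted p = 0.382). DESeq2 gave -1.12 (adjusted p = 0.0397) and library totals without TMM factors -1.11 (adjusted p = 0.0454), within a range of 0.0397 to 0.914 over 12 alternatives. MG132 libraries, which share the G2 libraries as their reference, had 7.17, 14.3, 6.64 and 11.2 CPM of BIK.

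PMAIP1 had 135.4, 97.7, 125.2 and 95.9 CPM with bortezomib. Replicates 1 and 3 lay above all 4 G2 libraries, and replicates 2 and 4 lay below G2 replicate 1 and above the other three. The log2 fold change was 0.83 (SE 0.45, adjusted p = 0.412). The GC slopes of the 4 bortezomib libraries lay between -0.20 and -0.07, against -0.08 to 0.36 in G2, and with the GC and length offset the PMAIP1 value was 0.52 (adjusted p = 0.325). MCL1 (ENSG00000143384.13, chr1:150574551-150579738, - strand) had 287.5, 267.4, 271.5 and 224.3 CPM with bortezomib and 177.1, 204.2, 205.5 and 221.4 CPM in G2. The MCL1 groups did not overlap, by a narrow margin, and the log2 fold change was 0.38 (SE 0.23, adjusted p = 0.457). BCL2L1 (ENSG00000171552.13, chr20:31664452-31723989, - strand) stood at -0.37 (SE 0.18, adjusted p = 0.359) and BAK1 (ENSG00000030110.13, chr6:33572547-33580293, - strand) at -0.38 (SE 0.22, adjusted p = 0.457).

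**Figure D4:**
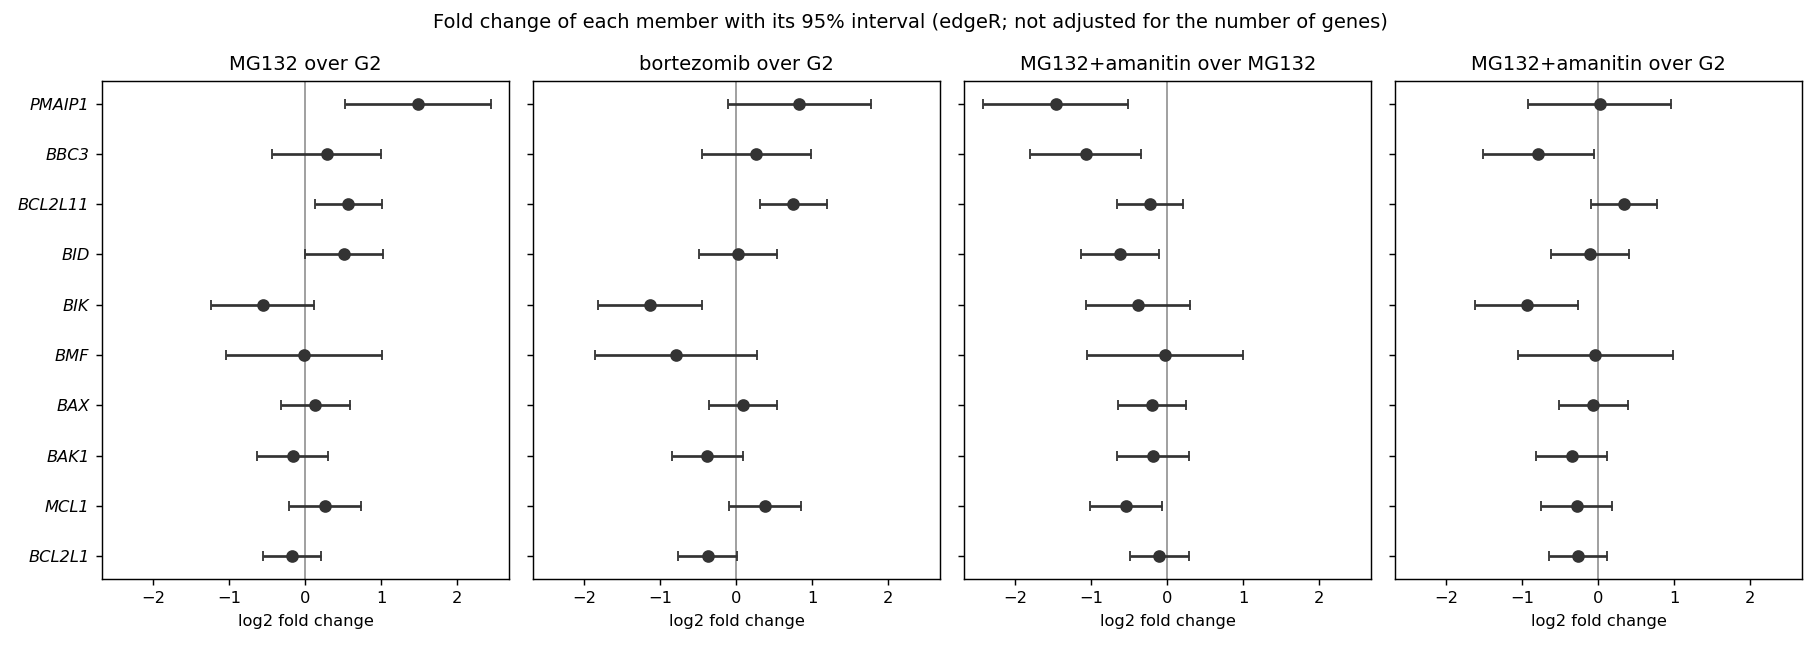
Log2 fold change of each gene with its 95% interval, from edgeR and not adjusted for the number of genes, in 4 comparisons. The intervals of PMAIP1 lie above 0 for MG132 over G2 and below 0 for MG132+amanitin over MG132, and those of BAX, BAK1 and BCL2L1 span 0 in all 4 panels.

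MG132 with α-amanitin against MG132 alone asks which transcripts stood lower, relative to the rest of the library, when RNA polymerase II was poisoned. Scaling to library size removes a fall shared by most transcripts. A value near 0 therefore does not show that a transcript was independent of the polymerase. All 10 genes had a negative log2 fold change, with a median of -0.30 against 0.02 over all genes tested. PMAIP1 at -1.47 and BBC3 at -1.07 were the lowest, followed by BID at -0.62 and MCL1 at -0.54. None of the 10 passed in edgeR, where 2.19% of all genes tested were called, and these 4 had an unadjusted p under 0.05, against 12.5% of all genes. DESeq2 called 1 of the 10, PMAIP1, and limma-voom 0. The groups did not overlap in 1 of the 10, BID, against 8.83% of all genes tested. The sign was not negative for every gene under every setting. With library totals alone and no TMM factors, where the median of all genes moved to 0.20, BCL2L1 stood at 0.06 and BMF at 0.15. Without MG132 replicate 4, the library of steepest GC slope, BAX stood at 0.0077, BAK1 at 0.013, BCL2L1 at 0.025 and BMF at 0.072.

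PMAIP1 had 50.1, 66.3, 75.5 and 66.7 CPM with both agents, against 134.6, 361.5, 184.0 and 34.5 CPM with MG132 alone. The 4 libraries with both agents lay close together, below MG132 replicates 1 to 3 and above replicate 4. The log2 fold change was -1.47 (SE 0.46, 95% interval -2.42 to -0.51, adjusted p = 0.122). Without MG132 replicate 4 it was -1.81 (adjusted p = 0.00566), without MG132 replicate 2 it was -0.87 (adjusted p = 0.494), and without the 4 skewed libraries -1.30 (adjusted p = 0.0143). The GC and length offset gave -1.23 (adjusted p = 0.0142). Over 12 alternatives the adjusted p lay between 0.0142 and 0.363. Within letters K, L and O of the sample code the differences were -1.42, -2.45 and -0.26. Against the starting level in G2, MG132+amanitin libraries stood at 64.6 ± 10.6 CPM and G2 libraries at 63.8 ± 26.2 CPM, a log2 fold change of 0.02 with an interval of -0.92 to 0.96.

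BBC3 (ENSG00000105327.18, chr19:47220822-47232766, - strand) had 1.54, 2.10, 3.46 and 4.48 CPM with both agents, against 5.58, 2.92, 5.41 and 10.4 CPM with MG132 alone. MG132 replicate 2 (GC slope -0.41) lay inside the range of the amanitin group, and replicate 4 (GC slope 0.74) was the highest with MG132 alone. The part of GC in these values was not tested. The log2 fold change was -1.07 (SE 0.35, 95% interval -1.80 to -0.34, adjusted p = 0.146). Leaving out 1 library at a time gave values between -1.37, without MG132+amanitin replicate 4, and -0.69, without MG132 replicate 4 (adjusted p = 0.255). The GC and length offset gave -1.21 and passed (adjusted p = 0.0095), within a range of 0.0095 to 0.406 over 12 alternatives. Against G2, whose libraries had 6.47, 5.12, 4.91 and 3.49 CPM, the value for MG132+amanitin was -0.79 (SE 0.35, adjusted p = 0.293).

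BID had 39.4, 44.3, 46.3 and 52.7 CPM with both agents, all below the 54.4 to 90.2 CPM of the MG132 group. Its log2 fold change was -0.62 (SE 0.25, adjusted p = 0.267). MCL1, whose message is known as short-lived, had 133.1, 159.9, 179.2 and 192.3 CPM with both agents and 270.9, 205.2, 333.7 and 157.8 CPM with MG132 alone. MG132 replicate 4 overlapped the amanitin group, and the log2 fold change was -0.54 (SE 0.23, adjusted p = 0.301). Without the 4 skewed libraries MCL1 stood at -0.86 and passed (adjusted p = 0.0412, within 0.0412 to 0.548 over 12 alternatives). Its value against G2 was -0.28 (SE 0.23, adjusted p = 0.652).

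BAX (ENSG00000087088.20, chr19:48954815-48961798, + strand) had 27.1, 32.1, 30.7 and 31.6 CPM with both agents, against 28.03, 28.9, 33.6 and 49.1 CPM with MG132 alone. BAK1 had 26.9, 32.8, 35.4 and 38.4 CPM with both agents, against 33.0, 27.9, 38.2 and 52.9 CPM with MG132 alone. Both effectors overlapped, with log2 fold changes of -0.20 and -0.19 (SE 0.21 and 0.22). BCL2L1 had 200.7, 221.2, 243.5 and 188.0 CPM with both agents and 218.4, 201.2, 208.5 and 287.0 CPM with MG132 alone, a log2 fold change of -0.10 (95% interval -0.48 to 0.28). A difference of the size seen in PMAIP1 lies outside that interval. BCL2L1 shares 43.0% of its exon bases with the opposite-strand ABALON, which was counted separately at 2 to 31 reads per library.

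Against G2 itself, MG132+amanitin left none of the 10 called in edgeR, where 3.35% of all genes tested were called, nor by DESeq2 or limma-voom. BIK and BBC3 were the 2 of the 10 with an unadjusted p under 0.05 (14.4% of all genes), and the groups overlapped in all 10, against 15% of all genes whose groups did not. BIK had 6.67, 8.67, 6.85 and 7.93 CPM with both agents, a log2 fold change of -0.94 (SE 0.33, adjusted p = 0.141) that stood at -0.54 without G2 replicate 1 (adjusted p = 0.61).

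**Figure D5:**
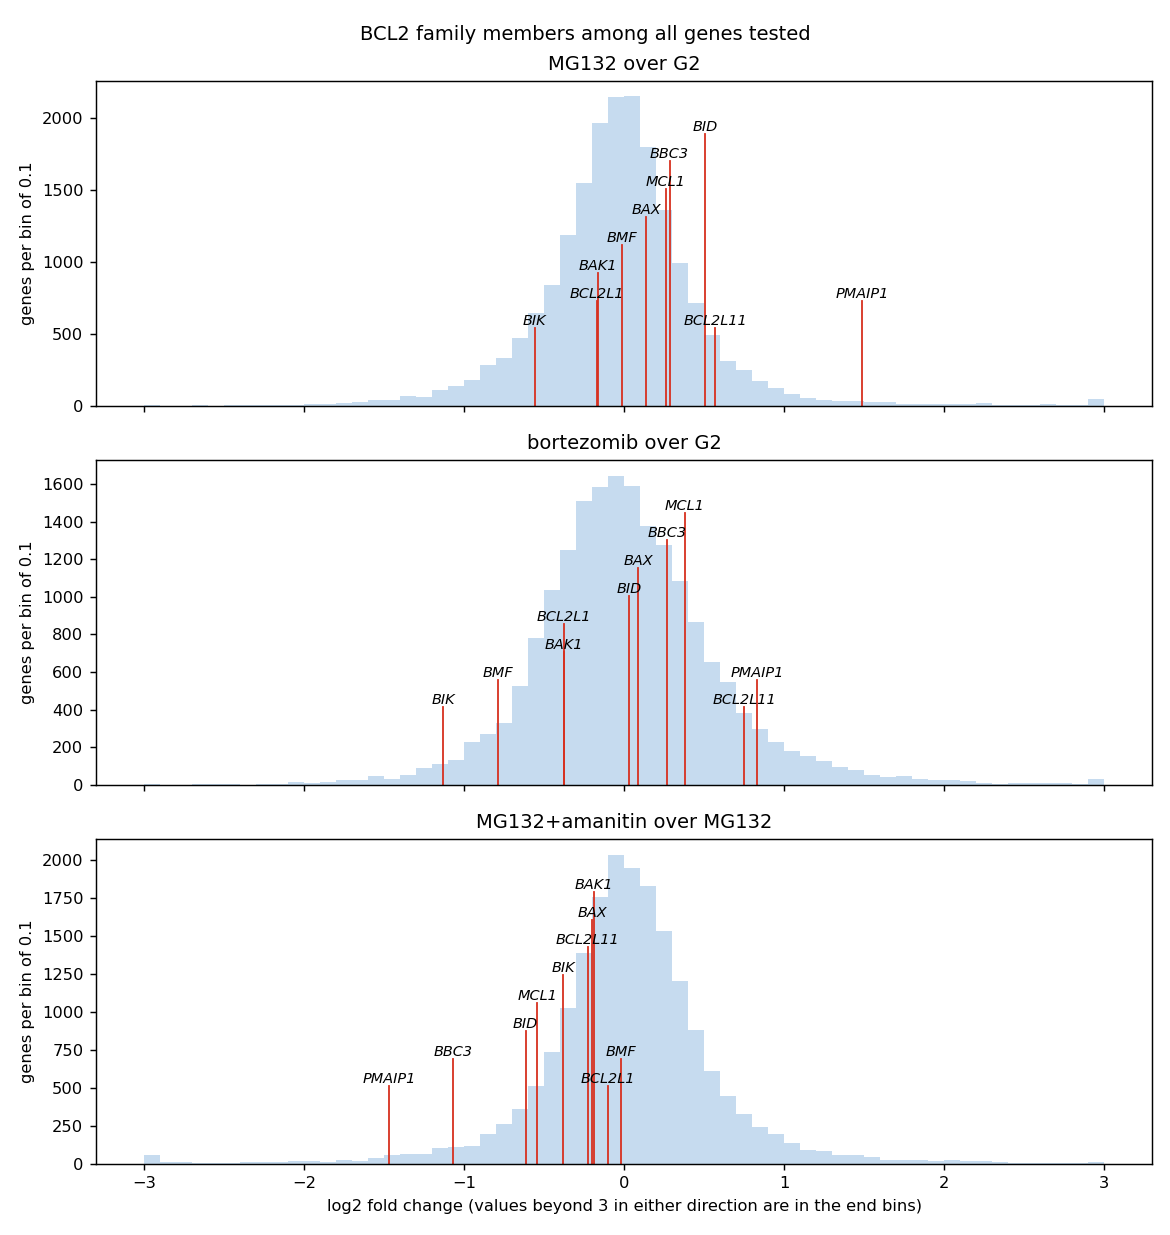
Number of genes tested per bin of log2 fold change (bin width 0.1, values beyond 3 in the end bins) for 3 comparisons, with each BCL2 family gene as a red line; the height of a red line carries no value. PMAIP1 lies in the upper tail for MG132 over G2, at 1.49, and in the lower tail for MG132+amanitin over MG132, at -1.47, while the effectors stay near the centre.

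The inhibitors themselves were compared at matched time. Neither edgeR nor limma-voom nor DESeq2 called any of the 10, and none had an unadjusted p under 0.05 in edgeR, against 4.05% of all genes tested. By edgeR 0.0369% of all genes tested, 7 genes, were called. BID and BMF did not overlap, against 3.16% of all genes, both higher with MG132. BID stood at 54.4 to 90.2 CPM with MG132 and 44.9 to 52.8 CPM with bortezomib, a log2 fold change of 0.48 (95% interval -0.03 to 0.99, adjusted p = 0.983). BMF had 0.78, 0.63, 0.73 and 0.91 CPM with MG132 and 0.30, 0.34, 0.55 and 0.59 CPM with bortezomib, a log2 fold change of 0.77 (95% interval -0.30 to 1.85), from 16 to 28 and 9 to 16 reads per library. For PMAIP1 the value was 0.65, with an interval of -0.29 to 1.59 that runs up to a 3.02-fold difference. Without MG132 replicate 2 it was 0.053, without MG132 replicate 4 it was 0.998, and within letter O of the sample code -0.76.

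Synchronisation was compared as G2 against asynchronous cells. BMF (ENSG00000104081.14, chr15:40087890-40108892, - strand), a BH3-only protein held at the cytoskeleton until stress releases it, had 0.70, 0.88, 0.98 and 0.53 CPM in G2 libraries and 0.25, 0.31, 0.43 and 0 CPM in asynchronous libraries. All G2 libraries lay above all asynchronous ones, with at most 34 reads in G2 and 12 in asynchronous libraries. The log2 fold change was 1.64 (SE 0.55, 95% interval 0.50 to 2.78, adjusted p = 0.146), and DESeq2 gave 1.63 (adjusted p = 0.0456, within 0.0456 to 0.452 over 11 alternatives). It was the only one of the 10 with an unadjusted p under 0.05 (13.1% of all genes) and the only one without overlap (7.64% of all genes). None of the 10 was called in edgeR, where 2.09% of all genes tested were, DESeq2 called 1 (BMF), and limma-voom 0. Summed fibroblast markers lay between 6.32 and 10.7 CPM in G2 and between 3.23 and 4.27 CPM in asynchronous libraries, mostly COL1A1, with 8 of 10 markers at 0 in all asynchronous libraries (COL1A2, COL3A1, DCN, LUM, PDGFRA, THY1, FAP and POSTN). COL1A1 was called higher in G2 (log2 fold change 1.19, adjusted p = 0.0133), as was the epithelial marker KRT20 (1.84, adjusted p = 0.0153). Their part in the BMF value was not tested. BMF shares 461 exon bases (8.46%) with the opposite-strand BMF-AS1. The other 9 genes had log2 fold changes between -0.36 and 0.25.

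As a description of the balance between NOXA and its partner, the ratio of PMAIP1 to MCL1 per kb of exon averaged 0.76 ± 0.07 with MG132 and α-amanitin, 1.48 ± 1.34 with MG132, 0.84 ± 0.09 with bortezomib, 0.64 ± 0.33 in G2 and 0.62 ± 0.22 in asynchronous cells (SD, n = 4 each). With MG132 alone it ranged between 0.43 and 3.45, so that group held both the highest ratio of all 20 libraries and one near the lowest of G2. The highest was MG132 replicate 2 (GC slope -0.41), and the lowest with MG132 was replicate 4 (GC slope 0.74). The lowest in G2, replicate 2 (0.42), and in asynchronous cells, replicate 3 (0.36), were also GC-skewed libraries. The PMAIP1 transcript is poorer in GC than that of MCL1, 37.2% against 45.1%, and the part of GC in the ratio was not tested. The protein ratio was not measured.

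Genes around the family were read from lists of the rest of the pathway. Of all genes tested, edgeR called 2.08% for MG132 over G2, 1.15% for bortezomib over G2 and 2.19% for MG132+amanitin over MG132. The shares were 3.35% for MG132+amanitin over G2 and 2.09% for G2 over asynchronous. Of 14 transcription factors tested that are known to control BCL2 family genes, 5 rose under MG132 against G2 and 0 fell, with a median of 0.29. JUN, an AP-1 subunit, reached 165.6 ± 71.5 CPM with MG132, against 6.49 ± 1.36 CPM in G2 (log2 fold change 4.67, adjusted p = 8.51e-07). ATF3 rose by 4.25 and DDIT3 (CHOP) by 3.16 on the log2 scale, and ATF4, the stress factor known to act on PMAIP1, by 0.89 (adjusted p = 0.036). FOS rose by 1.65, and DESeq2 and limma-voom called the same 5. With bortezomib 3 of the 14 rose and 0 fell, JUN by 3.40, ATF3 by 2.97 and DDIT3 by 2.62, while ATF4 stood at 0.66 (adjusted p = 0.144).

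With α-amanitin added to MG132, 6 of the 14 factors fell against MG132 alone and 0 rose. The MG132 libraries are the same as in the comparison with G2. JUN fell by 3.22, ATF3 by 2.62, DDIT3 by 2.40, FOS by 2.17, MYC by 1.41 and ATF4 by 1.07 on the log2 scale. Against G2, ATF3 (1.63) and JUN (1.45) were still higher and MYC lower (-1.59) in MG132+amanitin libraries. Between G2 and asynchronous cells 1 of the 14, E2F1, was lower by edgeR, at -0.90 (adjusted p = 0.015), while JUN stood at -1.18 (adjusted p = 0.113) and was called lower by DESeq2.

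In the death receptor arm, 1 of 10 genes tested rose under MG132 and 1 with bortezomib. It was TNFRSF10B (DR5), a receptor for TRAIL, with 200.2 ± 47.1 CPM with MG132 and 162.8 ± 21.5 CPM with bortezomib, against 89.5 ± 7.3 CPM in G2 (log2 fold changes 1.16 and 0.86, adjusted p = 0.0014 and 0.0242). With α-amanitin added it stood at 122.6 ± 14.2 CPM, lower than with MG132 alone by edgeR (log2 fold change -0.71, adjusted p = 0.047). FADD, the adaptor of these receptors, was lower in MG132+amanitin libraries than in G2 (-0.91, adjusted p = 0.0268) and stood at -0.85 under MG132 (adjusted p = 0.0557), where DESeq2 and limma-voom called it.

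Of the other BCL2 family genes, 11 of 14 were tested. Under MG132 and bortezomib edgeR, DESeq2 and limma-voom called 0 of the 11 against G2, with 2 and 0 of them at an unadjusted p under 0.05 by edgeR and log2 fold changes between -0.64 and 0.69. Over all genes tested, 11.8% had an unadjusted p under 0.05 by edgeR under MG132 and 14.5% with bortezomib. BCL2L15 was the 1 called between G2 and asynchronous cells, at 7.74 ± 2.17 CPM in G2 and 1.15 ± 0.54 CPM in asynchronous cells (log2 fold change 2.74, adjusted p = 0.000431). Of 13 genes of the apoptosome, the caspases and the IAPs and of 12 genes known to handle MCL1 and NOXA proteins or to dock at mitochondria, edgeR, DESeq2 and limma-voom called 0 in all 6 comparisons, with 0 of either list at an unadjusted p under 0.05 under MG132 by edgeR, and 2 and 0 with bortezomib. Under MG132 the 13 genes of the apoptosome, the caspases and the IAPs had log2 fold changes between -0.82 and 0.48. Among them XIAP, an inhibitor of caspases, stood at 0.06 (adjusted p = 0.986).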

How the data were processed

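Per the labels' protocols, TRIzol RNA was cleared of DNA with DNase and of ribosomal RNA before stranded TruSeq library preparation. The authors deposited raw counts per gene and per repeat subfamily, whole numbers with no normalisation. Per the submitters' processing notes FastQC, cutadapt 1.18, STAR and the build hg38 were used, with no roles given. The counting tool, annotation and strand setting were not given in these sources. All 20 columns matched samples by name. Counts do not separate splice forms.

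A single model in edgeR 4.0.16 (R 4.3.3) covered the genes and 1174 repeat subfamilies (filterByExpr, TMM, robust quasi-likelihood test), with all 20 libraries and 1 mean per group, giving 15 residual degrees of freedom and a biological coefficient of variation of 33.3%. Where no tool is named, adjusted p-values are edgeR's, by Benjamini-Hochberg over 18959 genes, with calls at under 0.05. Tests were two-sided, and 95% intervals are not adjusted. Symbols were matched for 39900 of 39918 genes. Positions and exon lengths are from GENCODE release 29 (hg38), matched without version numbers. The GC slope of a library is the coefficient of transcript GC in a linear fit over 18688 genes that also held log2 exon length. The value fitted was the log2 CPM (prior count 2) of the library relative to the mean of all libraries.

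The members, the lists of pathway and marker genes and the alternatives were chosen with earlier results of these data known, so none is independent support. All members are named, and from each list the called genes. Genes most like a member were to be named for called members; as none was called, those given were chosen after their values were seen. DESeq2 1.42.0, limma-voom (limma 3.58.1), other scalings and filters (a minimum CPM of 1 in 4 samples, or none), a replicate block, a code letter block, a GC and length offset (loess span 0.5), the fit of the groups compared and leaving out libraries were the alternatives. The fit was also run on simulated counts that held no GC slopes, so that run does not cover the GC-skewed libraries. DIABLO was left out because its symbol is on more than 1 row. Some genes of the lists and a motif that was also searched are not reported here.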

Additional observations from a re-analysis of the deposited data

Results flagged for a closer look

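BMF in MG132+amanitin replicate 4 stood at 1.46 CPM, far from the 0.46 to 0.58 CPM of the other 3 libraries of its group: the gap to the nearest was 0.88 of the range. It was the 1 such case among 50 groups of 4 examined, where chance gives about 1 in 20. BMF is the lowest of the 10 transcripts, with 14 to 53 reads per library in this group. Leaving the library out moved the log2 fold change of MG132+amanitin over MG132 to -0.58, the lowest of the fits without a single library. The cause was not tested.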

How the results depend on the processing

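Of 1194 values recomputed under the alternatives, 1100 kept their direction and side of the threshold, 13 kept their direction and newly passed and 81 changed sign, all of them uncalled. As no value was called in the fit as reported, no call could be lost, and the 1100 are values that stayed uncalled. The number of the 10 genes called was 0 in all 6 comparisons as reported. It was 1 for bortezomib over G2 with library totals and no TMM factors (BIK). Under DESeq2 it was 1 for MG132 over G2 (PMAIP1), 2 for bortezomib over G2, 1 for MG132+amanitin over MG132 (PMAIP1) and 1 for G2 over asynchronous (BMF). With the GC and length offset it was 1 for MG132 over G2 and 2 for MG132+amanitin over MG132 (PMAIP1 and BBC3). Without the 4 GC-skewed libraries it was 2 for MG132+amanitin over MG132 (PMAIP1 and MCL1). Leaving out 1 library at a time gave 0 to 1 for MG132 over G2 and for MG132+amanitin over MG132, both without MG132 replicate 4, and 0 otherwise. The stricter filter removed BMF. The causes were not tested.

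Values that changed sign, as log2 fold changes, are given here by setting. Without TMM factors they were BMF 0.15 and BCL2L1 0.058 for MG132+amanitin over MG132, BMF 0.013 for MG132+amanitin over G2, BBC3 -0.028 and BAX -0.017 for MG132 over bortezomib, and BID 0.043 for G2 over asynchronous. With the stricter filter they were BID -0.016 for bortezomib over G2. By DESeq2 they were BMF 0.028 for MG132 over G2. By limma-voom they were BMF 0.019 for MG132 over G2, and BBC3 -0.11 for MG132 over bortezomib. With RLE factors they were BMF 0.028 for MG132 over G2. With genes only they were BBC3 -0.022 for MG132 over bortezomib. With the code letter block they were BMF 0.085 for MG132 over G2, BMF 0.040 for MG132+amanitin over MG132, PMAIP1 -0.14, BID 0.064, BMF 0.12 and BAX 0.13 for MG132+amanitin over G2, and BBC3 -0.021 and BAX -0.11 for MG132 over bortezomib. With the GC and length offset they were BMF 0.048 and BAK1 0.0013 for MG132 over G2, BAX 0.051 for MG132+amanitin over G2, BBC3 -0.067, BCL2L11 0.015 and BAX -0.037 for MG132 over bortezomib, and BCL2L1 -0.072 for G2 over asynchronous. With only the groups compared they were BMF 0.041 for MG132 over G2, and BID -0.036 for bortezomib over G2. Without the skewed libraries they were BMF 0.010 for MG132 over G2, BIK 0.13, BMF 0.0011 and BCL2L1 0.0028 for MG132+amanitin over MG132, PMAIP1 -0.15 and BMF 0.011 for MG132+amanitin over G2, and BBC3 -0.13, BCL2L11 8.1e-05, BAX -0.13 and MCL1 0.20 for MG132 over bortezomib.

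Leaving out 1 library at a time, signs changed within these ranges. For MG132+amanitin over MG132 they were -0.31 to 0.013 for BAK1, -0.29 to 0.0077 for BAX, -0.18 to 0.025 for BCL2L1 and -0.58 to 0.15 for BMF. For G2 over asynchronous they were -0.33 to 0.0097 for BAX, -0.014 to 0.20 for BCL2L1, -0.29 to 0.10 for BID, -0.26 to 0.40 for BIK, -0.054 to 0.26 for MCL1 and -0.22 to 0.34 for PMAIP1. For MG132 over bortezomib they were -0.16 to 0.14 for BAX, -0.37 to 0.25 for BBC3 and -0.28 to 0.040 for MCL1. For MG132 over G2 they were -0.071 to 0.23 for BAX, -0.10 to 0.51 for BBC3 and -0.16 to 0.12 for BMF. For MG132+amanitin over G2 they were -0.15 to 0.011 for BAX, -0.25 to 0.038 for BID, -0.59 to 0.14 for BMF and -0.12 to 0.33 for PMAIP1. For bortezomib over G2 they were -0.11 to 0.18 for BID.

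The number of all genes called, the background of the report, ranged over the 12 alternatives between 86 (groups compared alone) and 790 (GC and length offset) for MG132 over G2, against 395 as reported. It ranged between 30 and 621 for bortezomib over G2 (218 as reported), 189 and 830 for MG132+amanitin over MG132 (415), 224 and 1038 for MG132+amanitin over G2 (636), 0 and 19 for MG132 over bortezomib (7) and 8 and 1037 for G2 over asynchronous (397).

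Same-numbered replicates were not paired in the fit as reported. The correlations of their deviations were -0.37, -0.45, 0.34 and -0.44 between MG132 and G2, and 0.53, 0.07, 0.03 and 0.50 between MG132+amanitin and MG132. Between G2 and asynchronous cells they were 0.61, -0.61, -0.52 and 0.57. These values do not settle whether the replicates belong in pairs. With a replicate block PMAIP1 stood at 1.34 for MG132 over G2 (adjusted p = 0.236), 258 genes in all were called there, 0 of the 10 were called in any comparison, and BBC3 was -0.043 for MG132 over bortezomib. Without TMM factors the median of all genes lay at -0.15 for MG132 over G2, 0.20 for MG132+amanitin over MG132 and 0.12 for G2 over asynchronous. Depth limits BMF most, with 0 to 53 reads per library.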

Other observations

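Over the 20 libraries, the protein-coding transcripts whose log2 CPM was most like that of PMAIP1 were ZFAND5 (Pearson's r = 0.95, Spearman's rho = 0.96), RBM39 (0.95 and 0.92) and DNAJB9 (0.94 and 0.94), with r of 0.95, 0.94 and 0.93 after the group means were removed. For BBC3 they were CEBPB (r = 0.86), KDM8 (0.84) and ID1 (0.81), with r of 0.79, 0.78 and 0.64 after the group means were removed. These values describe libraries that share depth and GC slopes, and no test was made of them.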
